A study of Mus musculus with 15 samples.

Results

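Glutathione, thioredoxin and the targets of the transcription factor NRF2 form the main defence of the cell against oxidants, and 39 genes of this defence were examined in mouse LSK cells. LSK cells are the sorted bone marrow fraction that lacks lineage markers and carries Sca-1 and Kit, and holds hematopoietic stem and progenitor cells. The list was drawn up by function, with earlier results of these data known, and each gene was read from the brightest probe set that carries its symbol and no other. By that rule 32 of the 39 were measured, among 22180 genes in all. Prdx1, Tkt, Ftl1 and Gstm5 lay only on probe sets shared with other symbols, and Prdx5, Prdx6 and G6pdx had none under this rule, so these 7 were not analysed here.

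There were 3 groups of 5 biological replicates, each on 1 Affymetrix Mouse Gene 2.0 array: LSK cells kept for 18 h in MyeloCult M5300 medium with extracellular vesicles (EV) shed by AFT stromal cells, LSK cells kept for 18 h in the same medium without EV, and LSK cells taken straight after sorting (non-cultured). The labels name no strain, age, animal, batch or vesicle dose, and the targets were made from 500 pg of total RNA. Culture and the hours since sorting cannot be told apart in this design. RNA from bulk cells was measured, so fewer cells of a type and less RNA per cell cannot be told apart either.

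Array medians lay between 4.62 and 4.74 on the log2 scale. The array of replicate 1 with EV stood apart, with a mean correlation of 0.928 with its group, against 0.943 to 0.948 for the other 4. Of the genes that define LSK cells, Kit lay high on every array (9.52 to 10.03 with EV, 9.87 to 10.09 without EV and 9.25 to 9.89 non-cultured), whereas Ly6a, which encodes Sca-1, was not measured under this rule. Of the 8 measured LSK genes, 1 rose with EV (Flt3), and 3 rose (Kit, Flt3 and Gata2) and 1 fell (Cd48) without EV, each against non-cultured cells. The 8 averaged 8.03 to 8.45 per array with EV, 8.27 to 8.48 without EV, against 8.07 to 8.50 in non-cultured cells. The lineage genes Cd3e, Ms4a1 and Ly6g stayed dim on all 15 arrays (Cd3e at 3.44 to 3.95, Ms4a1 at 2.77 to 3.33 and Ly6g at 2.48 to 3.61). The lymphocyte gene Nkg7 did not: it lay at 5.82 to 7.05 with EV, 6.17 to 6.77 without EV, against 8.18 to 8.87 in non-cultured cells. It and Thy1 were the 2 of 11 lymphocyte genes that fell, with and without EV, and the 11 averaged 3.82 to 4.24 per array with EV, 3.84 to 4.10 without EV, against 4.21 to 4.31 in non-cultured cells. Of 6 megakaryocyte genes Itga2b rose in both. Signals of 14 mature granulocyte and monocyte genes averaged 7.20 to 7.61 per array with EV, 7.23 to 7.76 without EV, against 6.20 to 6.92 in non-cultured cells, where replicates 4 and 5 were the lowest. Of these 14, 7 rose and 1 fell with EV and 7 rose and 2 fell without EV, each against non-cultured cells. Lyz2, Csf1r and S100a8 were among those that rose, while Mpo fell with and without EV and Prtn3 fell without EV. The shares of all genes beside every count in this paragraph were 6.28% up and 7.85% down with EV, and 6.75% up and 6.88% down without EV. These LSK, lymphocyte, megakaryocyte, granulocyte and monocyte genes moved with the culture changes described here, and their part in those changes was not tested.

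NRF2 is held by KEAP1, which passes it to a ubiquitin ligase, until oxidants or electrophiles modify KEAP1 and let NRF2 enter the nucleus. There it pairs with small MAF proteins on antioxidant response elements and raises genes that make glutathione, reduce thioredoxin, store iron and supply NADPH. In hematopoietic stem cells the level of reactive oxygen species is known to bear on quiescence and on the capacity to reconstitute blood.

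Culture changed this defence unevenly. The 4 members of glutathione synthesis and recycling, the 4 measured members of NADPH supply (Pgd, Taldo1, Me1 and Idh1), Nqo1 and Cat rose, while superoxide dismutases did not pass the test and Txn1, Prdx2 and Prdx4 fell. With EV, 17 of 32 members rose and 3 fell relative to non-cultured cells (limma, adjusted p under 0.05 after Benjamini-Hochberg correction over the 22180 genes), where 6.28% of all genes rose and 7.85% fell. Without EV, 14 of 32 rose and 3 fell relative to non-cultured cells, against backgrounds of 6.75% and 6.88%. The 14 that rose without EV were among the 17, and the 3 that fell, Txn1, Prdx2 and Prdx4, were the same. These comparisons share the non-cultured arrays. The median log2 fold change of the members was 0.42 with EV and 0.29 without EV, and that of all genes 0.04 and 0.01. The 5 arrays with EV lay wholly above the non-cultured ones in 15 members and wholly below in 2, where this held for 5.06% and 6.18% of all genes. Those without EV lay wholly above in 14 and wholly below in 3, against 5.89% and 6.1% of all genes. Between the 2 cultured groups none of the 32 passed, where 0.18% of all genes rose and 0.018% fell.

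**Figure D1:**
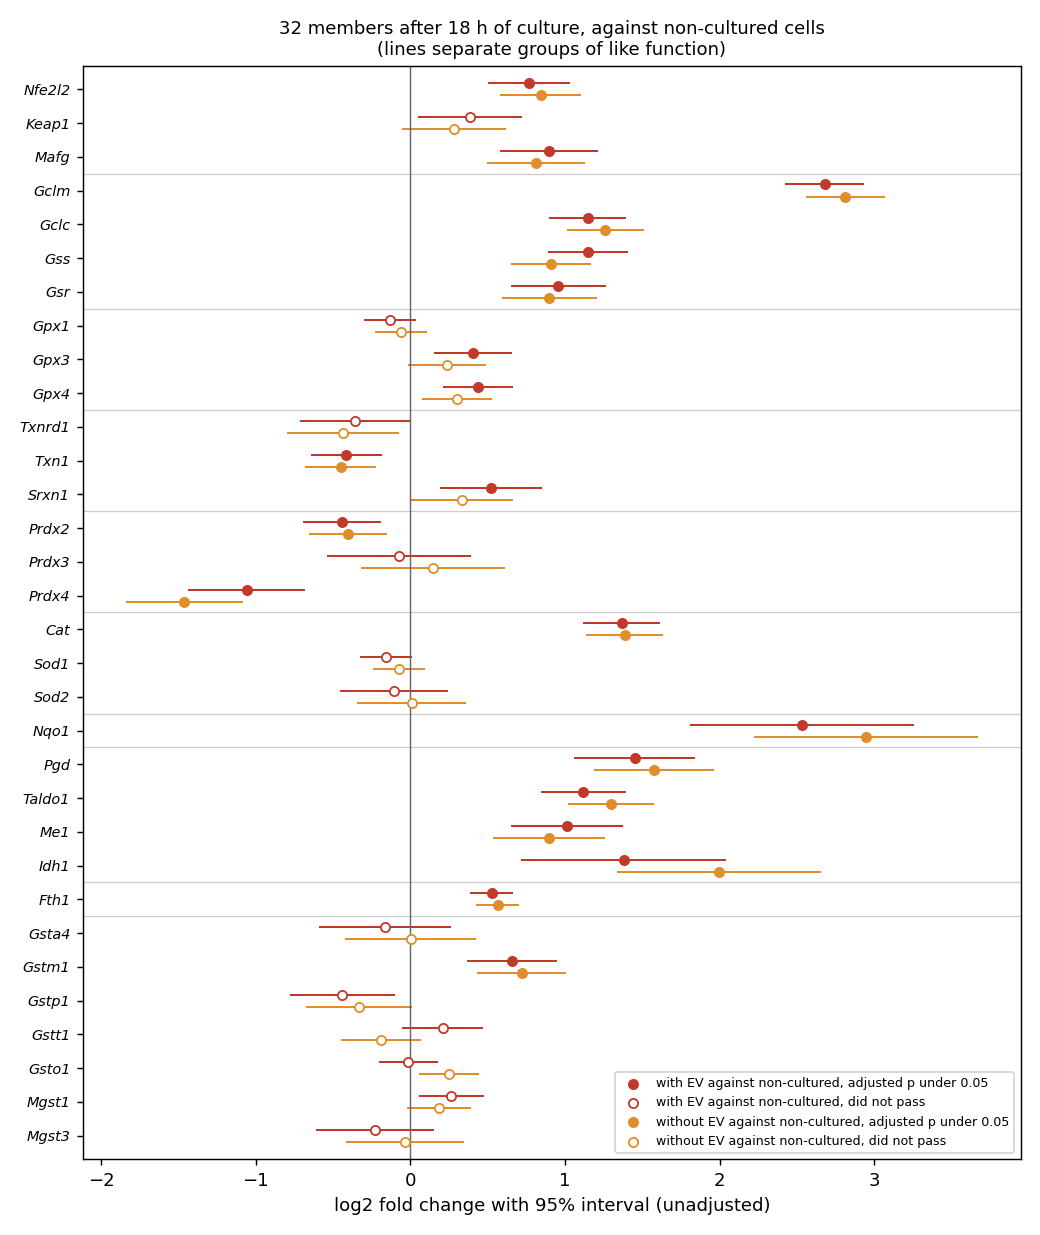
Log2 fold change of the 32 measured members after 18 h with EV (red) and without EV (orange), each against non-cultured cells, with 95% intervals not adjusted for many tests. Filled points passed at adjusted p under 0.05: 17 with EV and 14 without EV lie to the right of 0, and 3 in each lie to the left.

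Promoter sequences are shown for the 4 members that carry an antioxidant response element core and changed in both comparisons with non-cultured cells with the smallest adjusted p without EV. The core searched was TGACNNNGC on either strand, in RefSeq windows of build GRCm38.p6 from 250 bases before to 50 bases after an annotated start. Capitals mark the match, and each window reads 5′ to 3′ along its gene.
Gclm (chr3:122245307-122245606, plus strand): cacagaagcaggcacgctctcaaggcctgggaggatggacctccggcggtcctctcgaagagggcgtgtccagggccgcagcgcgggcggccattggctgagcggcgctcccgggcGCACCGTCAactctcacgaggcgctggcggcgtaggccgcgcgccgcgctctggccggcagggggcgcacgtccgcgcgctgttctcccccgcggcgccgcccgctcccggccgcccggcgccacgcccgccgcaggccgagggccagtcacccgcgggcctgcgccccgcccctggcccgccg
Pgd (chr4:149166033-149166332, minus strand): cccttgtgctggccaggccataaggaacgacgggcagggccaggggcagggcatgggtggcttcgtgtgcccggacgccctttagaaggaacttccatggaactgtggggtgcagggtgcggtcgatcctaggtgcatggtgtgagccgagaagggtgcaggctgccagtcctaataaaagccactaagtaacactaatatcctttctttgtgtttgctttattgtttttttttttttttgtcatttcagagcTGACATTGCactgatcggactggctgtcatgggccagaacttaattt
Nfe2l2 (chr2:75704614-75704913, minus strand): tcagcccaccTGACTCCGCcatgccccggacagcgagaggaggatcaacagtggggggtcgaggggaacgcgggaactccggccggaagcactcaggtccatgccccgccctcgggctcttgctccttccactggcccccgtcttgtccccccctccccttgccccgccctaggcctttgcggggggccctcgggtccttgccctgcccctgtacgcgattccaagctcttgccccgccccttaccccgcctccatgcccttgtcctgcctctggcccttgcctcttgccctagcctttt
Mafg (chr11:120633498-120633797, minus strand): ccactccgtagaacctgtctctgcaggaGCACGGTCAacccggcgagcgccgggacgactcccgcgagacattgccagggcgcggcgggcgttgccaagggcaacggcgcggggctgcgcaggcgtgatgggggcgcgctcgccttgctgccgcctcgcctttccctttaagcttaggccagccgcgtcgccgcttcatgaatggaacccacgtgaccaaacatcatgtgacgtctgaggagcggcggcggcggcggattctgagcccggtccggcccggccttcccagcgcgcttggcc
In Gclm the match lay on the opposite strand from base -134 to -126 before the start, in Mafg on the opposite strand from -222 to -214, and in Nfe2l2 on the gene's own strand from -240 to -232. The Pgd window belongs to an annotated start inside the gene, and its match lies just after that start, from base 4 to 12. The other Pgd window, upstream at chr4:149166656-149166955, held no match, so Pgd counts as a match by the inner window alone. Windows were found for 35 of the 39 listed genes, with none for Gclc, Gsr, Gsta4 and Prdx6, and 12 of the 35 had at least 1 match. By gene, that is 34.3%, against 13.99% of all 27025 genes with a window. Counted by window, 26.1% of 46 member windows held a match, against 12.39% of all 32851 windows. The matches in Me1 and in Prdx1, which was not measured, overlapped TGACTCA or its reverse complement, the site of AP-1 factors. Of the 9 measured members with a match, 5 rose without EV against non-cultured cells and none fell (Gclm, Pgd, Nfe2l2, Mafg and Me1). With EV 6 rose, these and Srxn1, and none fell. Of the 20 measured members with a window but no match, Nqo1 among them, 7 rose and 3 fell without EV. With EV 9 of these 20 rose and 3 fell. Of all genes, 6.75% rose and 6.88% fell without EV, and 6.28% rose and 7.85% fell with EV. Members with and without a match were not compared by a test. A match describes letters in this window and not a site in use.

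Of the 3 regulators, Nfe2l2 and Mafg rose in culture and Keap1 did not pass. Nfe2l2, the gene of NRF2, had log2 signals of 9.17, 9.42, 9.13, 9.47 and 9.27 with EV, 9.31, 9.39, 9.22, 9.52 and 9.39 without EV, against 8.63, 8.53, 8.13, 8.92 and 8.42 in non-cultured cells. Every cultured array lay above every non-cultured one, and the cultured groups overlapped each other. The rise was 1.79-fold without EV (log2 0.84, SE 0.12, limma adjusted p = 0.000202) and 1.70-fold with EV (log2 0.77, adjusted p = 0.00047). Mafg, a small MAF partner of NRF2, averaged 6.51 ± 0.21 with EV, 6.43 ± 0.11 without EV, against 5.62 ± 0.36 in non-cultured cells (SD, n = 5 each). Its cultured arrays were all above the non-cultured ones too, and it rose by log2 0.81 without EV and 0.89 with EV. Keap1, the inhibitor, averaged 5.70 ± 0.30 with EV, 5.60 ± 0.17 without EV, against 5.32 ± 0.30 in non-cultured cells. Its groups overlapped and it did not pass in either comparison (log2 0.28 without EV, adjusted p = 0.313, and 0.39 with EV, adjusted p = 0.129). With only non-cultured replicates 1 to 3 as the baseline, an alternative chosen after seeing the data, Keap1 passed with EV (log2 0.59, adjusted p = 0.0246), as it did when its probe sets were averaged (log2 0.33, adjusted p = 0.0471). Its second probe set gave log2 0.20 without EV and 0.26 with EV, and neither passed. Within single arrays, the log2 difference Nfe2l2 minus Keap1 was larger by 0.56 without EV than in non-cultured cells (exact permutation test over arrays, two-sided, p = 0.00794, the smallest that 5 against 5 allows). Adjusted over the 12 such tests that were run, p was 0.0317. The 12 include Gclm minus Gclc, known beforehand to change in culture and also at the smallest exact p, which lowers the adjusted values. No conclusion is drawn from the adjusted p of Nfe2l2 minus Keap1. With EV it was larger by 0.38 (exact p = 0.111), and the change between the cultured groups was -0.18 (exact p = 0.421). The call without EV was lost, at adjusted p = 0.0635, when any 1 of the 5 arrays without EV or non-cultured replicate 5 was left out. The change itself stayed at 0.45 to 0.64 in these fits, and with so few arrays the exact p moves in coarse steps. With EV the change passed (0.52, adjusted p = 0.0476) without replicate 3 with EV.

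**Figure D2:**
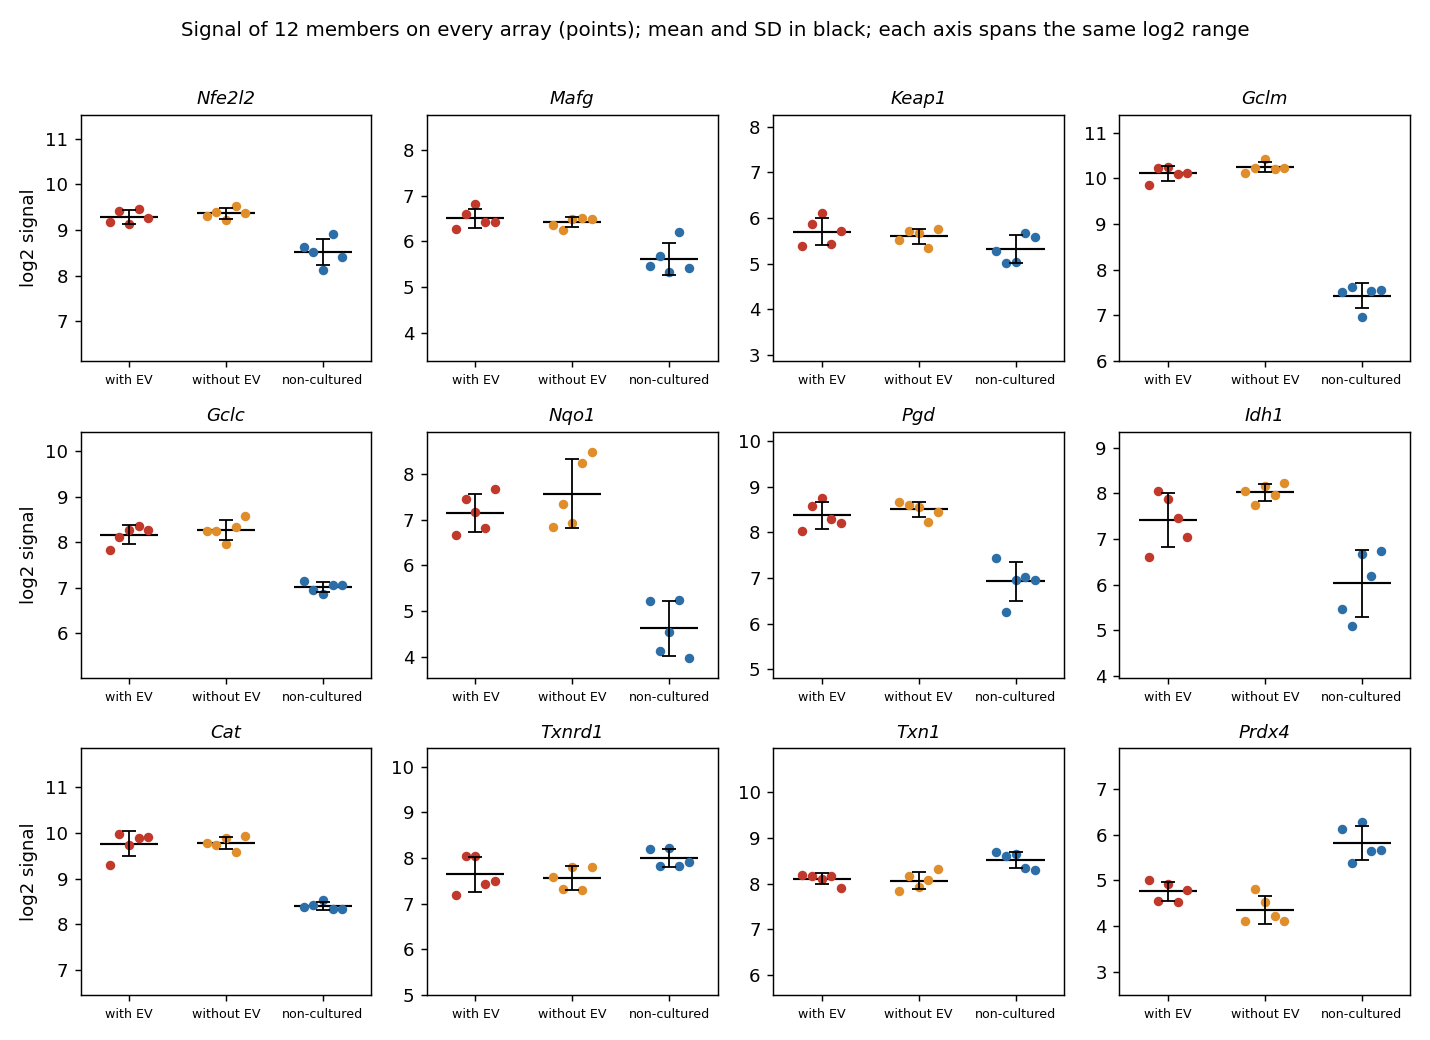
Log2 signal of 12 members on all 15 arrays (points), with the mean and SD in black, in the order with EV, without EV, non-cultured, all axes spanning the same range. In Gclm the cultured arrays lie at 9.86 or more and the non-cultured ones at 7.63 or less, while Txnrd1, Txn1 and Prdx4 sit lower in culture on average.

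All 4 genes of glutathione synthesis and recycling rose in culture, with and without EV. Gclm encodes the modifier subunit of glutamate-cysteine ligase, the rate-limiting enzyme of glutathione synthesis, and Gclc the catalytic subunit. Gclm had 9.86, 10.23, 10.25, 10.10 and 10.11 with EV, 10.12, 10.23, 10.42, 10.21 and 10.23 without EV, against 7.50, 7.63, 6.96, 7.52 and 7.54 in non-cultured cells. The cultured and non-cultured arrays were more than 2 log2 units apart, and non-cultured replicate 3 was the lowest. The change was 7.02-fold without EV and 6.40-fold with EV (log2 2.68, SE 0.12, limma adjusted p = 7.63e-10). Gclc had 7.83, 8.10, 8.26, 8.35 and 8.26 with EV, 8.25, 8.25, 7.97, 8.32 and 8.57 without EV, against 7.14, 6.95, 6.87, 7.05 and 7.06 in non-cultured cells. The cultured arrays again all lay above the non-cultured ones, with a rise of 2.22-fold with EV (adjusted p = 5.28e-06). As a description, Gclm minus Gclc within an array averaged 1.95 ± 0.15 with EV, 1.97 ± 0.29 without EV, against 0.42 ± 0.21 in non-cultured cells (SD, n = 5 each). It was larger by 1.53 with EV and by 1.55 without EV than in non-cultured cells, and the groups did not overlap. No test is given, since Gclm was known from earlier results of these data to rise more than Gclc. Between the cultured groups this difference changed by -0.02.

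**Figure D3:**
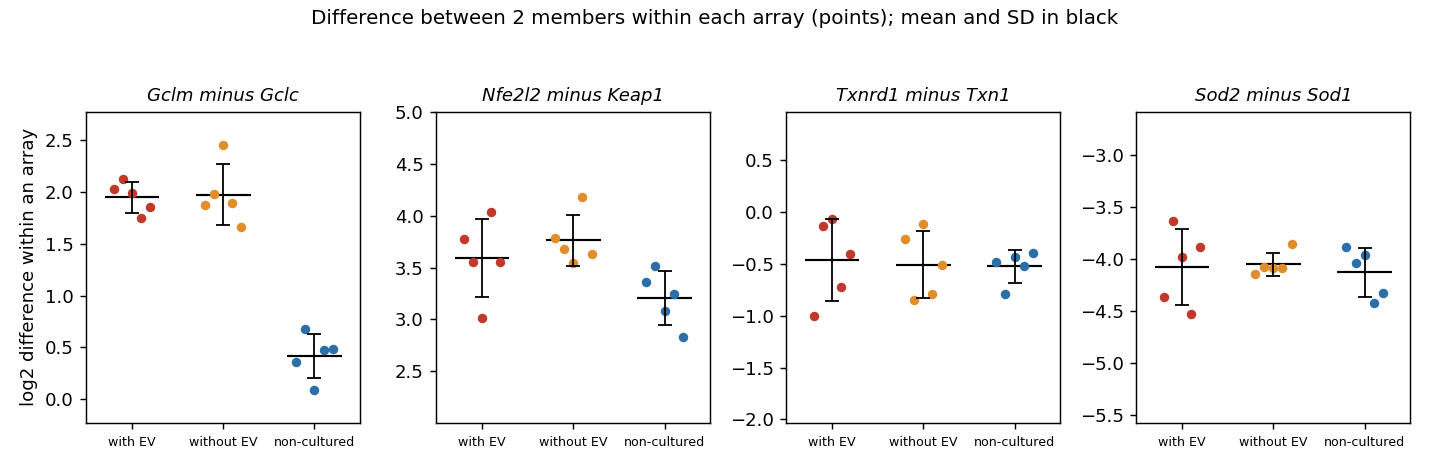
Difference in log2 signal between 2 members within each array (points), with the mean and SD in black. Gclm minus Gclc lies between 1.5 and 2.5 on the cultured arrays and below 0.8 on the non-cultured ones, while Txnrd1 minus Txn1 and Sod2 minus Sod1 overlap across the 3 groups.

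Gss, which adds glycine in the last step of glutathione synthesis, averaged 7.21 ± 0.15 with EV, 6.98 ± 0.26 without EV, against 6.06 ± 0.14 in non-cultured cells, a rise of 2.22-fold with EV and 1.88-fold without EV (adjusted p = 7.88e-06 and 7.9e-05). Gsr, the reductase that regenerates glutathione with NADPH, averaged 8.38 ± 0.26 with EV, 8.32 ± 0.27 without EV, against 7.42 ± 0.17 in non-cultured cells, and rose 1.94-fold with EV and 1.86-fold without EV. For both genes no cultured array overlapped a non-cultured one.

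Of the 3 measured glutathione peroxidases, which spend glutathione on peroxides, Gpx3 and Gpx4 rose with EV and none passed without EV. Gpx1, the abundant cytosolic selenoenzyme, averaged 11.21 ± 0.09 with EV, 11.28 ± 0.12 without EV, against 11.34 ± 0.08 in non-cultured cells, and the 95% interval of its log2 difference was -0.23 to 0.11 without EV and -0.30 to 0.03 with EV. Gpx4, which reduces lipid hydroperoxides in membranes, had 6.58, 6.32, 6.24, 6.27 and 6.12 with EV, 6.41, 6.25, 6.10, 6.10 and 5.98 without EV, against 5.73, 6.10, 5.84, 5.88 and 5.78 in non-cultured cells. All arrays with EV were above the non-cultured ones, whereas those without EV overlapped them. Gpx4 passed with EV (log2 0.44, SE 0.11, adjusted p = 0.0103) and did not without EV (log2 0.30, adjusted p = 0.0767), and the difference between the cultured groups itself did not pass (log2 0.14, adjusted p = 0.834). Without replicate 1 with EV, without non-cultured replicate 2, or after median centring, Gpx4 also passed in the cells without EV (adjusted p down to 0.042), and with only non-cultured replicates 1 to 3 it did not pass with EV (adjusted p = 0.0548). Gpx3, the secreted form, gave the same pattern, with log2 0.40 with EV (adjusted p = 0.0302) and 0.24 without EV (adjusted p = 0.24). Its call was lost without replicate 1 or 2 with EV, without non-cultured replicate 2, 3 or 4, and with only non-cultured replicates 1 to 3, with adjusted p up to 0.0799.

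Of the 3 measured thioredoxin system genes, Txn1 fell with and without EV, Srxn1 rose with EV, and Txnrd1 did not pass. Txn1, the thioredoxin that reduces disulfides of other proteins, had 8.19, 8.17, 8.10, 8.16 and 7.90 with EV, 7.84, 8.16, 7.93, 8.09 and 8.32 without EV, against 8.68, 8.61, 8.64, 8.35 and 8.31 in non-cultured cells. All arrays with EV were below the non-cultured ones, and 1 of the 25 pairs overlapped without EV. It fell by 0.41 on the log2 scale with EV (SE 0.11, adjusted p = 0.0168) and by 0.45 without EV (SE 0.11, adjusted p = 0.00985). The call with EV was lost after quantile normalization (log2 -0.29, adjusted p = 0.086). Txnrd1, the selenoprotein that reduces thioredoxin and a known NRF2 target, had 7.19, 8.04, 8.04, 7.44 and 7.49 with EV, 7.58, 7.31, 7.81, 7.29 and 7.81 without EV, against 8.20, 7.82, 8.21, 7.83 and 7.91 in non-cultured cells. The arrays without EV all lay below the non-cultured ones, those with EV overlapped them, and Txnrd1 did not pass (log2 -0.36 with EV, adjusted p = 0.199, and -0.44 without EV, adjusted p = 0.112). The difference Txnrd1 minus Txn1 within an array changed by 0.06 with EV (exact p = 0.77) and by 0.02 without EV (exact p = 0.937), and neither passed. Srxn1, sulfiredoxin, which repairs overoxidised peroxiredoxins, was higher with EV (log2 0.52, SE 0.16, adjusted p = 0.0338), with 24 of 25 pairs of arrays in that direction, and did not pass without EV (log2 0.33, adjusted p = 0.203). Its call with EV was lost without replicate 2, 3 or 5 with EV, without non-cultured replicate 2 or 4, with only the arrays of the groups compared, with only non-cultured replicates 1 to 3, and with the replicate number as a block, with adjusted p up to 0.138 over all alternatives.

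Of the 3 measured peroxiredoxins, which remove hydrogen peroxide, Prdx4 and Prdx2 fell. Prdx4, the form of the endoplasmic reticulum, had 5.00, 4.56, 4.92, 4.53 and 4.80 with EV, 4.10, 4.81, 4.54, 4.23 and 4.11 without EV, against 6.13, 5.38, 6.28, 5.64 and 5.66 in non-cultured cells. Every cultured array lay below every non-cultured one. It fell by 1.06 on the log2 scale with EV (SE 0.18, adjusted p = 0.000658) and by 1.46 without EV (SE 0.18, adjusted p = 3.18e-05). Prdx2, a cytosolic form abundant in red cells, averaged 6.45 ± 0.15 with EV, 6.49 ± 0.21 without EV, against 6.90 ± 0.20 in non-cultured cells, and was lower in 24 of 25 pairs of arrays with EV and in 23 of 25 without EV. It passed with EV (log2 -0.45, adjusted p = 0.0179) and without EV (log2 -0.40, adjusted p = 0.0325). Leaving out non-cultured replicate 1 ended both calls, and the call without EV was also lost without non-cultured replicate 2 or 4 or replicate 4 or 5 of the cells without EV, after median centring, with only the arrays of the groups compared and with a trended robust prior, with adjusted p up to 0.0899. After quantile normalization the call with EV was lost (adjusted p = 0.0545). The 5 measured erythroid genes averaged 4.83 to 5.11 per array with EV, 4.83 to 5.07 without EV, against 4.78 to 4.93 in non-cultured cells, and none of them passed. Prdx3, the mitochondrial form, ranged over 7.06 to 7.98 with EV, 7.27 to 8.59 without EV, against 7.41 to 7.78 in non-cultured cells, and did not pass.

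Of catalase, which breaks down hydrogen peroxide, and the 2 measured superoxide dismutases, Cat rose and Sod1 and Sod2 did not pass. Cat had 9.30, 9.98, 9.74, 9.88 and 9.92 with EV, 9.78, 9.73, 9.90, 9.58 and 9.92 without EV, against 8.38, 8.41, 8.54, 8.33 and 8.33 in non-cultured cells. The non-cultured arrays lay close together, and all cultured arrays were above them. The change was 2.58-fold with EV (log2 1.36, SE 0.12, adjusted p = 8.96e-07) and log2 1.39 without EV. Sod1, the cytosolic superoxide dismutase, averaged 11.15 ± 0.12 with EV, 11.23 ± 0.10 without EV, against 11.31 ± 0.05 in non-cultured cells. Its 95% interval was -0.32 to 0.01 with EV and -0.24 to 0.10 without EV, so changes of log2 0.5 or more lay outside it. Sod2, the mitochondrial enzyme, differed by log2 -0.11 with EV and 0.01 without EV, and neither passed (adjusted p = 0.748 and 0.991).

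Nqo1, the quinone reductase that is a classic NRF2 target, had the largest fold change among the measured members without EV. It had 6.66, 7.44, 7.16, 6.82 and 7.66 with EV, 6.83, 7.33, 6.93, 8.23 and 8.49 without EV, against 5.22, 4.12, 4.54, 5.23 and 3.97 in non-cultured cells. Cultured arrays were all above non-cultured ones, but within each of the 3 groups the values spread over more than 1 log2 unit. It rose 5.78-fold with EV (SE 0.34 on the log2 scale, adjusted p = 8.18e-05) and 7.71-fold without EV (adjusted p = 1.85e-05).

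The 4 measured members of NADPH supply, Pgd, Taldo1, Me1 and Idh1, rose with and without EV. Of 15 other genes of NADPH supply, none rose and 3 fell with EV, and 1 rose and 4 fell without EV. Of all genes, 6.28% rose and 7.85% fell with EV, and 6.75% rose and 6.88% fell without EV. These counts are small and are given as a description. Pgd, the 6-phosphogluconate dehydrogenase of the oxidative pentose phosphate pathway, had 8.04, 8.59, 8.76, 8.29 and 8.20 with EV, 8.67, 8.61, 8.57, 8.23 and 8.44 without EV, against 7.43, 6.26, 6.97, 7.03 and 6.95 in non-cultured cells. No cultured array overlapped a non-cultured one, and Pgd rose 2.73-fold with EV and 2.98-fold without EV (adjusted p = 4.52e-05 and 1.96e-05). Taldo1, transaldolase of the same pathway, averaged 8.15 ± 0.23 with EV, 8.33 ± 0.13 without EV, against 7.04 ± 0.25 in non-cultured cells, and rose 2.17-fold with EV and 2.45-fold without EV. Me1, the cytosolic malic enzyme, was dim, averaging 4.67 ± 0.43 with EV, 4.55 ± 0.12 without EV, against 3.65 ± 0.23 in non-cultured cells, and rose by log2 1.01 and 0.90 without overlap. Idh1, the cytosolic isocitrate dehydrogenase, had 6.62, 8.05, 7.88, 7.45 and 7.04 with EV, 8.04, 7.74, 8.16, 7.96 and 8.22 without EV, against 5.47, 5.09, 6.66, 6.20 and 6.73 in non-cultured cells. The arrays without EV were tight and all above the non-cultured ones, while replicate 1 with EV fell inside the non-cultured range. Idh1 rose 2.60-fold with EV (SE 0.31 on the log2 scale, adjusted p = 0.00642) and 3.99-fold without EV (adjusted p = 0.000336).

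Fth1, the ferritin heavy chain, which oxidises and stores iron, changed by a small and even step. It had 11.60, 11.62, 11.57, 11.64 and 11.60 with EV, 11.59, 11.64, 11.61, 11.65 and 11.72 without EV, against 11.14, 11.10, 11.14, 11.05 and 10.98 in non-cultured cells. All cultured arrays lay above the non-cultured ones, and the rise was 1.44-fold with EV (SE 0.06 on the log2 scale, adjusted p = 3.63e-05) and 1.48-fold without EV (adjusted p = 1.84e-05).

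Glutathione transferases, which join glutathione to electrophiles, had 7 measured members, of which 1 rose in each comparison with non-cultured cells and none fell, where 6.28% of all genes rose with EV and 6.75% without EV. Gstm1, of the mu class, averaged 7.52 ± 0.15 with EV, 7.59 ± 0.13 without EV, against 6.87 ± 0.33 in non-cultured cells, and rose 1.57-fold with EV and 1.64-fold without EV (adjusted p = 0.00365 and 0.00182). Mu class genes are alike in sequence, so their signals may be shared. Gstp1, of the pi class, had 8.37, 9.19, 9.02, 8.21 and 8.46 with EV, 8.85, 8.55, 8.83, 8.89 and 8.68 without EV, against 9.12, 9.16, 9.10, 9.17 and 8.90 in non-cultured cells. The arrays without EV were all below the non-cultured ones, yet Gstp1 did not pass (log2 -0.44 with EV, adjusted p = 0.0843, and -0.33 without EV, adjusted p = 0.22). It did pass with EV when replicate 2 or 3 with EV was left out, at adjusted p down to 0.0126, and in the cells without EV when only those and the non-cultured arrays were fitted (adjusted p = 0.0307). Gsta4, which acts on lipid aldehydes, Gstt1, Gsto1 and the membrane-bound Mgst1 and Mgst3 differed by log2 -0.23 to 0.26 with EV and by -0.19 to 0.25 without EV. Of these, Gsto1 passed without EV when replicate 3 without EV was left out (adjusted p = 0.0176), and Mgst1 passed in both comparisons without non-cultured replicate 1 (adjusted p = 0.0103 with EV and 0.0436 without EV) and with EV after quantile normalization (adjusted p = 0.0419).

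**Figure D4:**
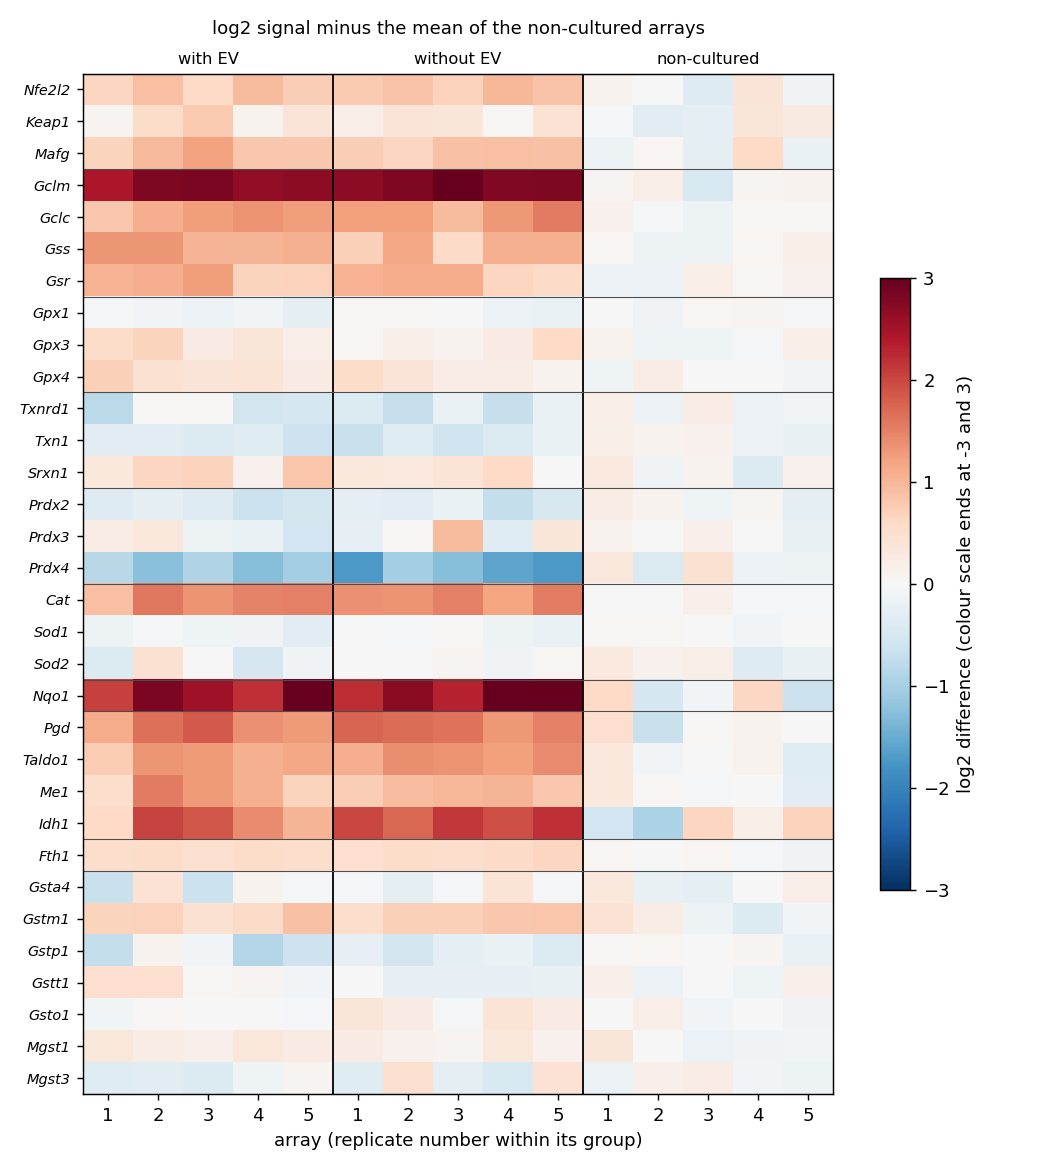
Log2 signal of the 32 members on each array minus the mean of the 5 non-cultured arrays, with EV at the left, then without EV, then non-cultured, and lines between groups of like function. Gclm, Nqo1 and Idh1 have dark red cells on most cultured arrays and Prdx4 has blue ones, and Nqo1 passes the end of the colour scale on some arrays.

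The comparison with EV against without EV asks whether the vesicles altered this response. None of the 32 members passed (limma adjusted p under 0.05), 3 had an unadjusted p under 0.05, where 6.82% of all genes had, and in all 32 the arrays of the groups overlapped, where 0.762% of all genes lay wholly higher and 0.437% wholly lower with EV. For 23 of the 32 the 95% interval of the log2 fold change lay within 0.5 of 0 in both directions, and for 30 within 1. The lowest bound was -1.28, for Idh1 (log2 -0.62, SE 0.31, adjusted p = 0.748), and Nqo1 was the other gene whose interval passed 1 (log2 -0.41, SE 0.34, adjusted p = 0.839). A missed threshold does not show that these genes were equal.

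The 3 with an unadjusted p under 0.05 were Gstt1, Gsto1 and Prdx4. Gstt1, a theta class transferase, had 5.79, 5.80, 5.32, 5.36 and 5.20 with EV, against 5.29, 5.05, 5.04, 5.05 and 5.06 without EV. It was higher in 24 of 25 pairs (log2 0.40, SE 0.12, adjusted p = 0.492). Gsto1, of the omega class, had 7.40, 7.53, 7.51, 7.50 and 7.45 with EV, against 7.85, 7.75, 7.46, 7.91 and 7.75 without EV, and was lower in 22 of 25 pairs (log2 -0.26, adjusted p = 0.566). Prdx4 differed by log2 0.40 (SE 0.18, adjusted p = 0.705) and was higher with EV in 21 of 25 pairs. Among the members that rose in culture, Nqo1 differed between the cultured groups by log2 -0.41 (95% interval -1.14 to 0.31), Idh1 by -0.62 (-1.28 to 0.04), Gclm by -0.13 (-0.39 to 0.12), Gclc by -0.11 (-0.36 to 0.14), Cat by -0.02 (-0.27 to 0.23) and Fth1 by -0.04 (-0.18 to 0.10). With EV 1 of 12 stromal genes, Cald1, rose against cells without EV and none fell, where 0.18% of all genes rose and 0.018% fell. Against non-cultured cells, 4 of the 12 rose with EV and none without EV, and none fell in either. Of all genes, 6.28% rose with EV and 6.75% without EV. The 12 averaged 4.52 to 4.80 per array with EV, 4.43 to 4.56 without EV, against 4.39 to 4.56 in non-cultured cells. The part of this stromal signal in the comparison of the cultured groups was not tested.

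**Figure D5:**
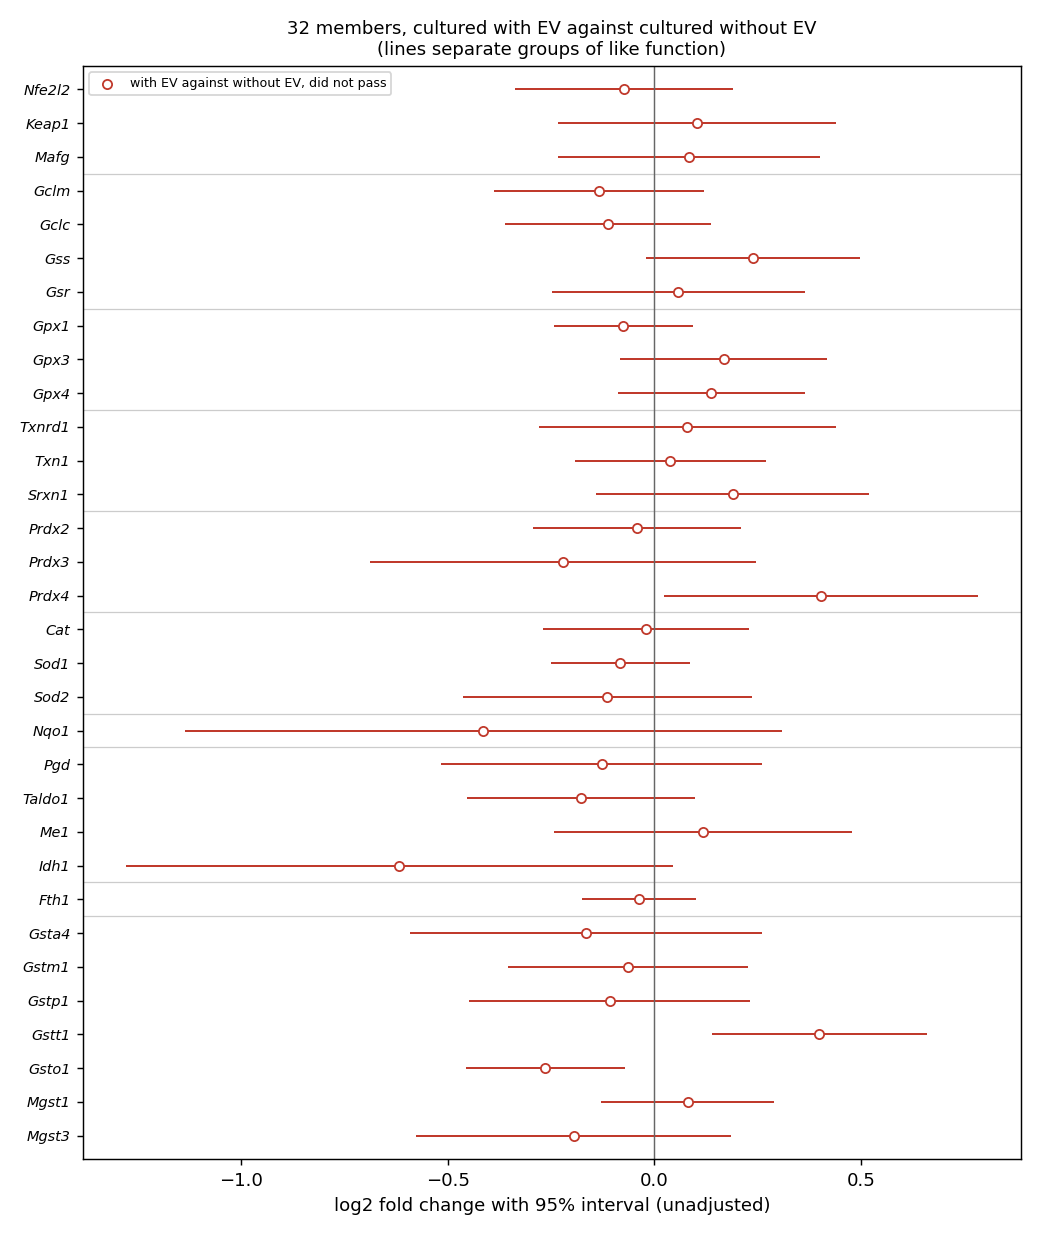
Log2 fold change of the 32 measured members with EV against without EV, with 95% intervals not adjusted for many tests. All points are open because none passed, and Idh1 and Nqo1 have intervals that reach below -1.

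Other genes of these pathways, were taken from lists drawn up by function. Of 95 measured among 103 listed, 12 rose and 10 fell with EV and 13 rose and 12 fell without EV, each against non-cultured cells, where 6.28% of all genes rose and 7.85% fell with EV and 6.75% rose and 6.88% fell without EV. None of the 95 passed between the cultured groups. The counts of the shorter lists that follow are small and are given as descriptions beside these same shares. The median log2 fold change of the 95 was 0.06 with EV and 0.04 without EV.

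Among 23 other NRF2 targets and redox genes, 6 rose and 1 fell with EV, and 5 rose and 1 fell without EV. Hmox1, heme oxygenase, had 10.56, 10.91, 10.73, 10.89 and 10.90 with EV, 10.21, 10.63, 10.43, 10.96 and 11.02 without EV, against 5.68, 4.92, 6.31, 5.21 and 4.89 in non-cultured cells. Its non-cultured arrays stood apart from all cultured ones, and it rose 42.1-fold with EV (log2 5.40, SE 0.23, adjusted p = 6.07e-10) and 38.1-fold without EV. Slc48a1, a transporter that brings heme out of endosomes, rose by log2 1.32 with EV and 1.42 without EV, Abcc1, an exporter of glutathione conjugates, by 0.80 and 0.75, and Sqstm1, the autophagy receptor p62 that binds KEAP1, by 0.56 and 0.54. Slc7a11, the cystine transporter that feeds glutathione synthesis, had 6.23, 6.66, 6.47, 4.57 and 5.41 with EV, 6.79, 6.76, 5.86, 3.37 and 5.10 without EV, against 5.33, 3.75, 4.19, 3.17 and 4.33 in non-cultured cells. It spread over more than 2 log2 units within each group, overlapped between groups and did not pass (log2 1.71 with EV, adjusted p = 0.0688, and 1.42 without EV, adjusted p = 0.144). Slc3a2, its heavy chain, which also serves other amino acid transporters, fell by 1.35 on the log2 scale with EV and by 1.24 without EV.

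Among 12 other partners and relatives of NRF2, 1 rose and 3 fell in each comparison with non-cultured cells. Nfe2, a relative of NRF2 active in megakaryocytes and red cell precursors, rose by log2 0.80 with EV and 0.89 without EV. Maff, a small MAF gene, fell by 1.09 with EV and by 1.03 without EV on the log2 scale, opposite to Mafg, while Mafk differed by -0.03 and 0.04 and did not pass. Bach1, which competes with NRF2 for the same elements, differed by 0.20 with EV and 0.05 without EV and did not pass. Its relative Bach2 fell by 0.54 without EV (adjusted p = 0.0378) and did not pass with EV (log2 -0.34, adjusted p = 0.206). Fbxw11, a receptor of a ubiquitin ligase that acts on NRF2 apart from KEAP1, fell by 0.85 with EV and by 0.71 without EV. Cul3, the scaffold of the ligase that KEAP1 serves, fell by 0.41 with EV (adjusted p = 0.0267) and did not pass without EV (log2 -0.33, adjusted p = 0.0798).

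Of 29 other glutathione and glutaredoxin genes, 3 rose and 2 fell with EV, and 4 rose and 1 fell without EV. Gsta3, an alpha class transferase, averaged 6.17 ± 0.40 with EV, 6.61 ± 0.50 without EV, against 4.37 ± 0.08 in non-cultured cells, a rise of log2 1.79 and 2.24 (adjusted p = 2.6e-05 and 2.88e-06). Hpgds, the glutathione-dependent prostaglandin D synthase, rose by log2 1.38 with EV and 1.65 without EV. Of 16 other thioredoxin and repair genes, 2 rose in each comparison, namely Txnip, which binds and inhibits thioredoxin (log2 1.18 with EV and 1.28 without EV), and Msrb1, a selenoprotein that repairs methionine sulfoxide (log2 1.29 and 1.26). With EV 1 of the 16 fell, Txnl1, and without EV 3 did, Msra, Nxn and Txnl1.

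Among the other genes of NADPH supply that fell, Idh2, the mitochondrial counterpart of Idh1, had 7.82, 7.82, 8.02, 8.02 and 7.76 with EV, 8.10, 7.98, 7.97, 8.01 and 7.91 without EV, against 8.89, 8.89, 8.79, 8.79 and 8.47 in non-cultured cells. All cultured arrays were below the non-cultured ones, and Idh2 fell by 0.88 on the log2 scale with EV (SE 0.09, adjusted p = 7.55e-06) and by 0.77 without EV. The folate enzymes Mthfd1 and Mthfd2, which also yield NADPH or NADH, differed by log2 -0.86 and -0.74 with EV and by -0.82 and -0.78 without EV, and all 4 differences passed.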

How the data were processed

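The deposited table holds 41345 probe sets on 15 arrays. The deposited values span 1.40 to 13.0 and were read as log2 signals from that span, since no base is named, and per the submitters' processing notes the authors used MAS5, with no role or version; normalization is not given in the sources used here. The table has no background or detection column, and the number of arrays limits the precision. Array medians differed by less than 0.5, so values were used as deposited.

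The platform annotation gave 23521 probe sets 1 symbol, 1814 several, and left 16010 unnamed. The brightest of a gene's single-symbol probe sets, by mean over all arrays, gave 22180 genes. The 3 group means were fitted by limma (version 3.58.1, R 4.3.3; lmFit and eBayes on 15 arrays, 12 residual and 3.66 prior degrees of freedom), two-sided, with Benjamini-Hochberg adjustment over all genes per comparison and calls at adjusted p under 0.05. Standard errors are limma's moderated ones. The fit was run on simulated data with independent noise, and only the comparison with EV against without EV was checked. The simulation held no structure shared by replicates, and no call here rests on it. Of 6 planned pairs of members, 4 could be run, since Prdx1 and Ftl1 were not measured; their differences within arrays were compared by exact permutation in 3 comparisons. All measured members may be named, and from each other list up to 6 genes with the smallest adjusted p plus Hmox1, Slc7a11, Bach1, Bach2, Txnip, Sqstm1, Mafk and Maff. Members and lists were chosen with earlier results of these data known. Alternatives changed the normalization, the dim gene filter, the probe set rule, the arrays fitted, the eBayes prior and the replicate block, and left out each array in turn. Promoter windows come from RefSeq (GRCm38.p6). Replicate numbers are shared between the groups, but nothing in the labels says that a number marks a shared animal or day, so they were not used as pairs.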

Additional observations from a re-analysis of the deposited data

Results flagged for a closer look

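In 96 sets of 5 arrays (32 members in 3 groups), the Dixon test at the 95% level picked out 3 single arrays whose gap to the nearest other array was large for the range of the group. Chance gives about 1 in 20, so 3 of 96 is no more than chance gives. Gstt1 was 5.29 in replicate 1 without EV, where the other 4 arrays lay between 5.04 and 5.06. Gclm was 6.96 in non-cultured replicate 3, against 7.50 to 7.63 in the others of its group. Gstp1 was 8.90 in non-cultured replicate 5, against 9.10 to 9.17 in the others. The calls of Gclm held with that array left out, and those of Gstt1 and Gstp1 stayed on the same side of the threshold without theirs.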

How the results depend on the processing

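Under the 24 alternatives, the 14 members that rose in both comparisons with non-cultured cells kept their calls, except that Me1 was not tested when the dimmest 40% of genes were left out, and no called member changed sign. Prdx4 also kept its call in both. Between the cultured groups 0 members passed under any alternative. Across 2301 member values, 36 changed sign, none of them while called. After quantile normalization 1 member fell with EV against non-cultured cells in place of 3, since Txn1 and Prdx2 were lost. With the replicate block, 16 members rose and 3 fell with EV, 14 rose and 3 fell without EV, and 0 passed between the cultured groups; Srxn1 with EV was the one call it ended. Same-numbered arrays correlated by -0.125 to 0.187 in their deviations from the group means, over 0.1 in 1 of 15 pairs. Of the 15, 3 correlated best with their own number, so the numbers were not taken as pairs. The numbers were still not without structure. In each comparison, replicates 4 and 5 of the first-named group correlated best with replicate 4 or 5 of the other. Replicates 1 to 3 correlated best with another group's replicate 1, 2 or 3, except replicate 3 with EV, which did so with non-cultured replicate 4. What sets replicates 4 and 5 apart was not tested, and the main fit has no term for it. When each array was left out in turn, 15 to 18 members rose and 2 to 4 fell with EV, and 14 to 15 rose and 2 to 3 fell without EV. With only non-cultured replicates 1 to 3, chosen after seeing the data, 15 rose and 3 fell with EV and 14 rose and 3 fell without EV. The shares of all genes called in these alternative fits are not given here, so the counts describe the members alone. In the same leave-one-out fits, the change of Nfe2l2 minus Keap1 was 0.45 to 0.64 without EV against non-cultured cells and 0.27 to 0.52 with EV against non-cultured cells; the cause of the lost and gained calls was not tested. No batch or date is given, and signal over background is unknown, which limits what can be said of dim members such as Me1.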
